A study of Rattus norvegicus with 6 samples.

Results

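The 47 genes described here encode the enzymes and transporters that carry glucose into the cell, split it into lactate or pyruvate, and store or release it as glycogen. They were chosen as named genes of glycolysis, glucose transport and glycogen metabolism, by their role. A probe set of their own symbol was found for 46 of them, among 11237 genes kept in all, and where several carried the symbol, the one brightest on average over the 6 arrays was read. Ppp1r3c, a glycogen-targeting subunit of protein phosphatase, had no such probe set. All 46 measured genes passed the filter of a log2 signal above 5 on at least 1 array, and Hk3 was the 1 gene with any array at or below 5.

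Left atria were taken from 6 adult male Sprague-Dawley rats that carried implanted atrial electrodes and had received atenolol, a beta blocker, in their drinking water. Rats in the RAP group (rapid atrial pacing, n = 3) were paced at a cycle length of 70 ms for 48 hours. Rats in the control group (Con, n = 3) were paced at 140 ms for the same time. Because the ventricles followed every other beat in RAP and every beat in control pacing, the ventricular rate was alike in both groups. Each RAP rat was operated on, recovered and paced alongside a control rat. The sample titles give replicate numbers 1 to 3 in each group and do not state which rats were paired. Rats with the same replicate number are taken here as pairs 1 to 3. RNA of each atrium was hybridised to 1 array. Values are log2 signals and changes are RAP minus control on the log2 scale.

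In cardiac muscle, GLUT4 (Slc2a4) and GLUT1 (Slc2a1) let glucose in, hexokinase traps it as glucose 6-phosphate, and phosphofructokinase commits it to glycolysis. Most steps are carried out by isozymes that differ between tissues, with muscle forms such as Pfkm, Eno3, Pgam2 and Pygm, and other forms such as Pfkl, Eno2, Aldoc and Pygl that are better known from liver or brain. Phosphoglucomutase (Pgm1) links glucose 6-phosphate to glycogen, which glycogen synthase builds and glycogen phosphorylase breaks down, the latter switched on by phosphorylase kinase.

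The arrays differed in their cell markers, and 1 control array stood apart. On the array of control rat 3 the ventricular gene Myl2 stood at 8.60, against 4.28 to 4.89 on the other 5 arrays, and the red cell gene Slc4a1 stood at 10.36, against 6.52 to 7.42. The atrial genes Myl7 (13.61 to 13.76) and Nppa (13.40 to 13.59) were high on all 6 arrays. The mean of 12 cardiomyocyte markers was 0.45, 0.84 and 0.04 higher with RAP in pairs 1, 2 and 3. The mean of 12 fibroblast markers changed by -0.45, -1.61 and 0.66, that of 15 macrophage markers by -0.48, -1.62 and 0.66, and that of 9 adipocyte markers by 0.29, 0.27 and 0.57. The mean of 7 mesothelial markers, genes of the outer lining of the heart, was lower with RAP in all 3 pairs (-1.14, -0.25 and -0.76). The markers did not all move alike. Msln, Wt1 and Prg4 fell, Prg4 with -2.16 in pair 2. Upk1b, Krt19 and Bnc1 were higher with RAP in pair 2 (0.14, 1.24 and 1.32), Krt8 was higher in pair 3 (0.57), and none of these passed. In whole atrial tissue, fewer cells of a type and less RNA per cell cannot be told apart.

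Of the 46 genes, 4 rose with RAP and 1 fell in limma's pair-blocked test at the thresholds the study set (a fold change over 1.3 together with p under 0.05 before adjustment), while 41 did not pass. Pfkp, Pgk1, Pgm1 and Phkg1 rose and Slc2a1 fell. These 5 genes make 10.9% of the 46, beside 6.15% of all 11237 genes (2.87% higher and 3.28% lower). No gene passed after Benjamini-Hochberg adjustment over all genes in limma. The smallest adjusted p was 0.723, and 740 of all genes had an unadjusted p under 0.05, 6 of them among the 46. The groups did not overlap for 10 of the 46 genes, 8 with all RAP values above all control values (7.57% of all genes) and 2 with all below (7.85% of all genes). With no replicate block the counts were 5 higher and 1 lower, beside 7.72% of all genes (3.62% higher and 4.1% lower). The methods' t-test gave 3 higher and 0 lower, beside 2.08% (1.06% higher and 1.02% lower). The median change of the 46 genes was 0.25, beside -0.01 for all genes, and 34 had a mean change above 0 and 12 below. The median differed between pairs, at 0.18, 0.40 and 0.06. For 1 gene in 3 against 3 rats, 0.1 is the lowest two-sided p open to exact relabelling of the arrays when pairs are ignored. When labels are exchanged only within the 3 pairs, the lowest is 0.25.

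**Figure D1:**
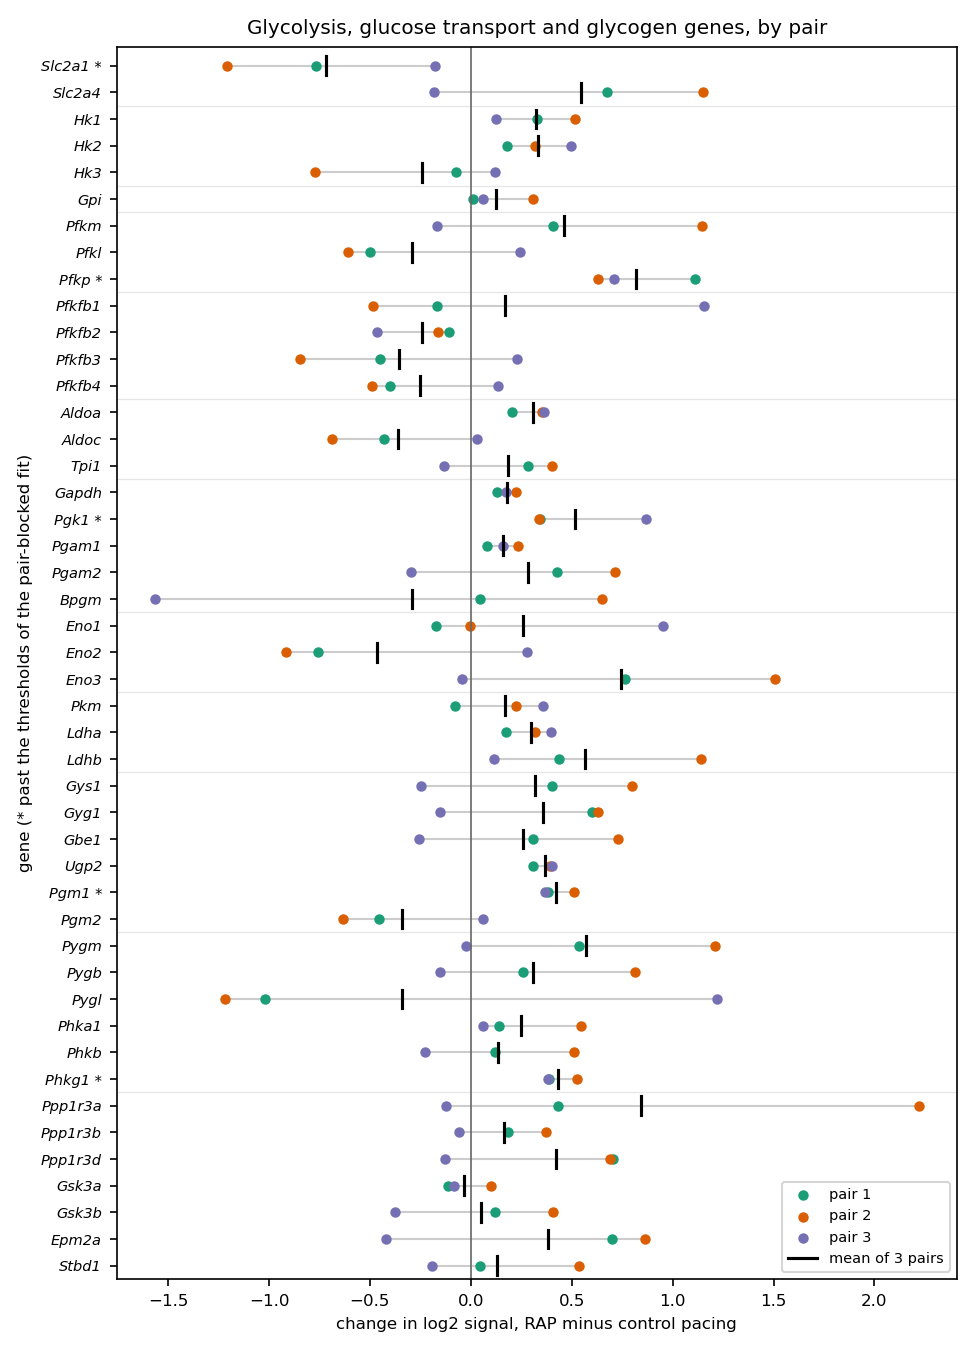
Log2 change (RAP minus control) of each of the 46 measured genes in each of the 3 pairs of rats, grouped by step of the pathway, with genes past the thresholds marked. Most of the muscle forms and glycogen enzymes lay above 0 in pairs 1 and 2 and near or below 0 in pair 3.

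The 250 bases before the start of 3 of the 5 genes are shown because glycolytic genes are textbook targets of the hypoxia-inducible factors, whose sites hold the core ACGTG or GCGTG. Capitals mark either core on either strand, and sequences are from RefSeq on GRCr8, all on the plus strand: Pfkp at chr17:68639563-68639812, Pgm1 at chr5:119710484-119710733 and Slc2a1 at chr5:138002272-138002521.
Pfkp: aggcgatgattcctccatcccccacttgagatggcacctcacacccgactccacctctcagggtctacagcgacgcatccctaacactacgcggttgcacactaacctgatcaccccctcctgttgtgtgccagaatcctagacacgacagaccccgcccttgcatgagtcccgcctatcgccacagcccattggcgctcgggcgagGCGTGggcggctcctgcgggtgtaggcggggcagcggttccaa
Pgm1: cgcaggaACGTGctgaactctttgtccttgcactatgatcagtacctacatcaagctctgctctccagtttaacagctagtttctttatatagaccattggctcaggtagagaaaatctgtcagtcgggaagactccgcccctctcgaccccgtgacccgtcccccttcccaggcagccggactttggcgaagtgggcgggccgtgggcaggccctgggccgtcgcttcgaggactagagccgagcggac
Slc2a1: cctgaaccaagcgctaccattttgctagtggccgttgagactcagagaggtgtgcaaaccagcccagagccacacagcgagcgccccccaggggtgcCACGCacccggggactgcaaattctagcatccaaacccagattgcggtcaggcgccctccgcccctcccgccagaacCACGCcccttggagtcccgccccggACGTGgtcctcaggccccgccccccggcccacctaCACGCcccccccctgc

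Pfkp held 1 GCGTG and no ACGTG, Pgm1 held 1 ACGTG, and Slc2a1, the gene that fell, held 1 ACGTG and 3 GCGTG. The window of Phkg1, which is not printed here, held 1 ACGTG and no GCGTG. No window was found for Pgk1. Windows were found for 44 of the 47 genes (49 windows, since some genes have several starts). ACGTG was present in 46.9% of these windows, beside 16.6% of all 33469 windows of the same length, and GCGTG in 42.9%, beside 25.9%. The windows also had a higher mean GC content, 60.3% beside 52.2%. A match describes the letters of the window and says nothing of binding in these atria.

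Glucose entry was the step at which the single fall was found. GLUT1 (Slc2a1), the widely expressed transporter, stood at 7.76, 7.82 and 7.15 in control rats 1 to 3 and at 6.99, 6.62 and 6.97 in RAP rats 1 to 3. The RAP values all lay below the control values, with the widest gap in pair 2 and the narrowest in pair 3. Its change was -0.72 ± 0.23 (SE, n = 3 pairs; 95% confidence interval -1.33 to -0.11), a fold of 0.608 with an unadjusted p of 0.0292 in limma. Control rat 2 was highest and RAP rat 2 lowest for this gene and for the means of the fibroblast and macrophage markers. With RAP, these 2 marker means were lower in pairs 1 and 2 and higher in pair 3. The mean of the mesothelial markers was lower with RAP in all 3 pairs, with its largest difference in pair 1. The part of these cells in the result was not tested. GLUT4 (Slc2a4), the insulin-regulated transporter of muscle, stood at 8.12, 8.01 and 8.60 in control rats and 8.79, 9.16 and 8.42 in RAP rats. It was higher with RAP in pairs 1 and 2 but 0.18 lower in pair 3, and its change of 0.55 ± 0.28 (SE) did not pass. The GLUT1 change less the GLUT4 change was -1.26 ± 1.19 (SD, n = 3 pairs).

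Hexokinase, which phosphorylates glucose, gave 2 forms that were higher in all pairs without passing. Hk1, the form of most tissues, stood at 9.09, 9.01 and 9.23 in control rats and 9.42, 9.53 and 9.35 in RAP rats. Hk2, the insulin-regulated muscle form, stood at 7.98, 7.74 and 7.55 against 8.16, 8.06 and 8.04. The groups did not overlap for either gene, and neither gene passed, with changes of 0.32 ± 0.15 (SE) and 0.33 ± 0.14 (SE). Hk3, a form of white blood cells, lay close to the filter, with 5.10, 5.64 and 4.90 in control rats and 5.02, 4.87 and 5.02 in RAP rats, and its change was -0.24. Gpi, which turns glucose 6-phosphate into fructose 6-phosphate, changed by 0.13.

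Phosphofructokinase, the committing step of glycolysis, held the largest change among genes that passed. Pfkp, the platelet-type subunit, stood at 7.47, 7.69 and 7.81 in control rats and 8.58, 8.32 and 8.52 in RAP rats, so the groups did not overlap. Its change was 0.82 ± 0.16 (SE, n = 3 pairs; 95% confidence interval 0.40 to 1.24), a 1.76-fold rise with an unadjusted p of 0.0044 in limma. Pfkp was among the genes the study chose on these same samples, so its rise is not independent evidence of a direction. The muscle subunit Pfkm stood at 10.21, 9.94 and 10.51 in control rats against 10.62, 11.09 and 10.34 in RAP rats, higher in pairs 1 and 2 and lower in pair 3. The liver subunit Pfkl went the other way in each pair, from 8.46, 8.31 and 7.75 to 7.96, 7.70 and 7.99. Neither subunit passed (0.46 ± 0.28 and -0.29 ± 0.22, SE). The bifunctional Pfkfb enzymes, which set the level of a small activator of phosphofructokinase, had changes of -0.24 (Pfkfb2), -0.36 (Pfkfb3), -0.25 (Pfkfb4) and 0.17 (Pfkfb1), and none of the 4 passed. Pfkfb2 was lower in all pairs with no overlap between the groups. Pfkfb3 stood at 7.09, 6.91 and 6.59 in control rats and 6.63, 6.06 and 6.82 in RAP rats.

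**Figure D2:**
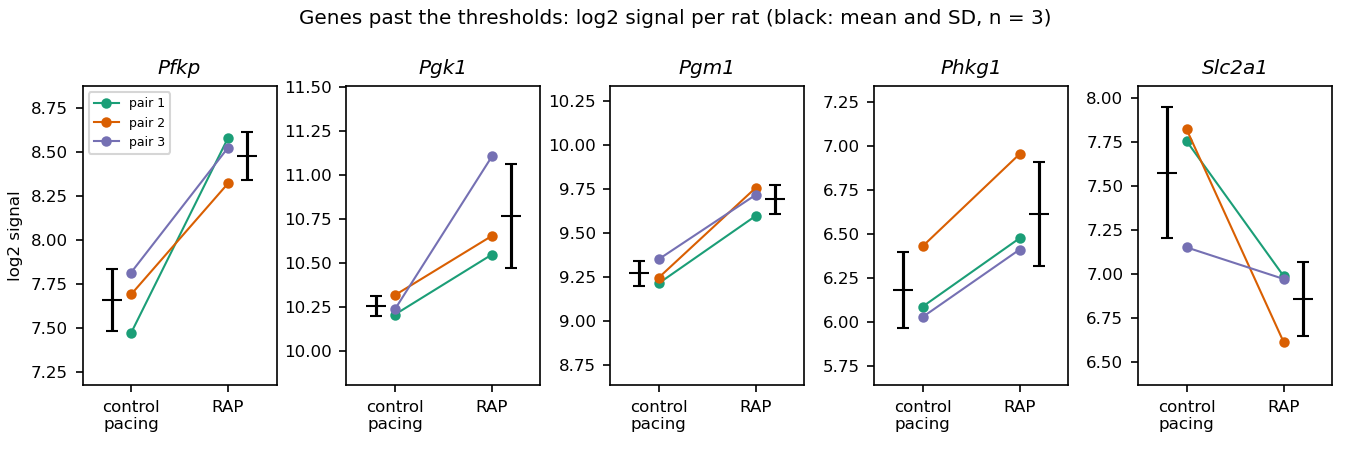
Log2 signal of the 5 genes past the thresholds on each of the 6 arrays, with lines joining the control and RAP rat of a pair. Pfkp, Pgk1 and Pgm1 were higher and Slc2a1 lower on all 3 RAP arrays than on any control array, while the groups of Phkg1 overlapped.

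In the middle of glycolysis, where sugar phosphates are split and the first ATP is regained, Pgk1 rose. Pgk1, phosphoglycerate kinase, stood at 10.21, 10.32 and 10.24 in control rats and 10.55, 10.65 and 11.11 in RAP rats. All RAP values lay above all control values, and RAP rat 3 was highest by a wide margin. Its change was 0.52 ± 0.17 (SE, n = 3 pairs; 95% confidence interval 0.07 to 0.97), a 1.43-fold rise with an unadjusted p of 0.0323 in limma. Without pair 3 the gene no longer passed.

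Aldoa, the aldolase of muscle, stood at 12.02, 11.98 and 12.06 in control rats and 12.23, 12.34 and 12.43 in RAP rats, without overlap, and its change of 0.31 ± 0.13 (SE) did not pass. Aldoc, the brain form, stood at 5.99, 5.93 and 5.58 against 5.56, 5.25 and 5.61, with a change of -0.36 that did not pass either. The Aldoc change less the Aldoa change was below 0 in all 3 pairs (-0.64, -1.04 and -0.33). Tpi1, triose phosphate isomerase, changed by 0.18.

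Gapdh, the glyceraldehyde 3-phosphate dehydrogenase often used as a reference gene, gave different calls with different probe sets. Its brightest probe set stood at 13.03, 13.05 and 13.08 in control rats and 13.16, 13.28 and 13.26 in RAP rats, a change of 0.18 ± 0.13 (SE) that did not pass although the groups did not overlap. The array held 16 kept probe sets with this symbol. All 16 had a mean change above 0, from 0.18 to 0.44 with a median of 0.26, and 3 of them passed, with changes of 0.42, 0.41 and 0.44. The smallest change was that of the brightest probe set. Gapdh too was among the genes the study chose on these samples, and probe sets of 1 gene are not replicates. The rat genome holds many near-identical Gapdh copies, and which of these a probe set reads was not tested.

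**Figure D3:**
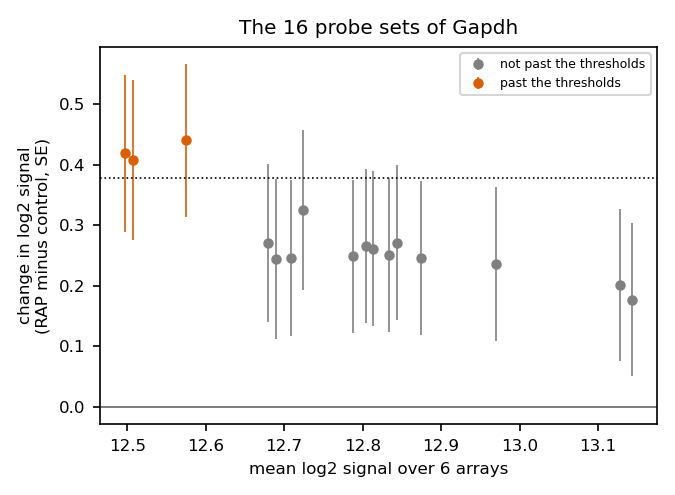
Change with RAP of each of the 16 kept Gapdh probe sets (log2, RAP minus control) against its mean log2 signal over the 6 arrays. All 16 lay above 0, and the 3 past the thresholds were dimmer than the brightest probe set, whose change was the smallest.

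The last steps of glycolysis gave no gene past the thresholds. Pgam1, the general phosphoglycerate mutase, stood at 11.97, 11.94 and 11.72 in control rats and 12.05, 12.17 and 11.88 in RAP rats. Pgam2, the muscle form, stood at 10.71, 10.84 and 11.28 against 11.14, 11.55 and 10.98. Both groups overlapped for each gene. Bpgm, the related red cell enzyme, changed by 0.05, 0.65 and -1.57 in the 3 pairs, and its value in control rat 3, the array with the highest red cell markers, was 9.81 against 7.74 to 8.39 on the other arrays.

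The enolase isozymes moved apart in pairs 1 and 2. Eno3, the muscle form, stood at 9.15, 8.69 and 10.14 in control rats and 9.91, 10.20 and 10.10 in RAP rats. Eno2, the neuronal form, stood at 7.74, 7.85 and 7.05 against 6.99, 6.94 and 7.33. Eno1, the general form, stood at 11.12, 11.16 and 10.59 against 10.95, 11.15 and 11.54. For all 3 forms control rat 3 lay apart from control rats 1 and 2. Changes were 0.74 ± 0.32 for Eno3, -0.46 ± 0.28 for Eno2 and 0.26 ± 0.26 for Eno1 (SE), and none passed.

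Lactate dehydrogenase interconverts pyruvate and lactate. Ldha, the form favoured in glycolytic muscle, stood at 12.29, 12.21 and 12.15 in control rats and 12.47, 12.53 and 12.55 in RAP rats, without overlap. Ldhb, the heart form, stood at 10.80, 10.68 and 11.30 against 11.23, 11.82 and 11.41, and was higher with RAP in all 3 pairs. The changes of 0.30 ± 0.13 and 0.56 ± 0.23 (SE) did not pass. Pkm, pyruvate kinase, changed by 0.17.

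Of the 20 genes of glycogen metabolism 19 were measured, and 2 of them rose and 0 fell (10.5%, beside 6.15% of all genes). Their median change was 0.31, beside -0.01 for all genes, with pair medians of 0.31, 0.54 and -0.12. The 27 genes of glycolysis and glucose transport had 2 that rose and 1 that fell (11.1%), a median of 0.18 and pair medians of 0.08, 0.31 and 0.13. In pair 3 the median was therefore below 0 for the glycogen genes and above 0 for the others.

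Pgm1, phosphoglucomutase, which joins glycolysis to glycogen in both directions, stood at 9.21, 9.25 and 9.35 in control rats and 9.60, 9.76 and 9.72 in RAP rats, without overlap. Its change was 0.42 ± 0.13 (SE, n = 3 pairs; 95% confidence interval 0.08 to 0.76), a 1.34-fold rise with an unadjusted p of 0.0259 in limma. The changes in the pairs, 0.38, 0.51 and 0.37, were the most even of the 5 genes together with those of Phkg1. Ugp2, which makes the UDP-glucose that glycogen synthase uses, was higher in all pairs (0.31, 0.39 and 0.40) and missed only the fold threshold with its 1.29-fold difference. Gys1 (glycogen synthase of muscle), Gyg1 (the primer glycogenin) and Gbe1 (the branching enzyme) were higher in pairs 1 and 2 and lower in pair 3, with mean changes of 0.32, 0.36 and 0.26 that did not pass.

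On the side of glycogen breakdown, Phkg1, the catalytic subunit of phosphorylase kinase in muscle, rose. It stood at 6.09, 6.43 and 6.03 in control rats and 6.48, 6.96 and 6.41 in RAP rats. The groups overlapped, since control rat 2 lay between RAP rats 3 and 1, but the RAP rat was higher in each pair (0.39, 0.52 and 0.38). Its change was 0.43 ± 0.13 (SE, n = 3 pairs; 95% confidence interval 0.09 to 0.78), a 1.35-fold rise with an unadjusted p of 0.0235 in limma that was lost without the pair as a block. The other kinase subunits Phka1 and Phkb changed by 0.25 and 0.13 and did not pass.

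Glycogen phosphorylase has muscle, brain and liver forms. Pygm, the muscle form, stood at 10.39, 10.27 and 10.80 in control rats and 10.92, 11.48 and 10.77 in RAP rats. Pygb, the brain form, stood at 9.11, 9.05 and 9.14 against 9.37, 9.87 and 8.98. Pygl, the liver form, stood at 7.76, 7.66 and 6.89 against 6.74, 6.44 and 8.11, lower with RAP by 1.02 and 1.22 in pairs 1 and 2 and higher by 1.22 in pair 3. None passed, and the SE of the Pygl change, 0.52, was larger than the change of -0.34. The means of the macrophage and fibroblast markers had the same signs in the pairs as Pygl. Some single markers did not, namely Thy1, Lum, Tcf21 and Marco among others. The part of these cells was not tested.

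The regulators of glycogen gave the largest mean change of the 46 genes. Ppp1r3a, the muscle subunit that brings protein phosphatase to glycogen, stood at 6.95, 6.27 and 7.40 in control rats and 7.38, 8.49 and 7.28 in RAP rats. Its change of 0.84 ± 0.48 (SE) did not pass, and the pairs gave 0.43, 2.22 and -0.12. Ppp1r3d, a related subunit, and Epm2a (laforin, a glycogen phosphatase) were also higher in pairs 1 and 2 and lower in pair 3, with means of 0.42 and 0.38. The kinases Gsk3a and Gsk3b, which inhibit glycogen synthase, changed by -0.03 and 0.05.

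The signs in the pairs fell into few patterns. Of the 46 genes, 14 were higher with RAP in all 3 pairs (30.4%, beside 14.3% of all genes) and 2 lower (4.35%, beside 14.1%). A further 18 (39.1%, beside 19.3% of all genes) were higher in pairs 1 and 2 and lower in pair 3, among them Slc2a4, Pfkm, Eno3, Pgam2, Gys1, Pygm and Ppp1r3a. The reverse pattern was found in 10 (21.7%, beside 21.7% of all genes), among them Pfkl, Aldoc, Eno1, Eno2 and Pygl. The array of RAP rat 2 was the highest of the 6 for 25 of the 46 genes (54.3%, beside 21.8% of all genes), and it also held the highest cardiomyocyte and lowest fibroblast markers. The array of control rat 2 was the lowest for 14 of them (30.4%, beside 17.7%). The mean of 8 ventricular markers changed by 0.67, 0.85 and -1.06 in pairs 1 to 3, with the signs of the 18 genes. The means of 9 atrial (0.25, 0.68 and -0.08) and 8 smooth muscle markers (0.60, 0.41 and -0.13) had these signs too. That of 12 cardiomyocyte markers (0.45, 0.84 and 0.04) did not. The part of cell makeup in these changes was not tested.

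**Figure D4:**
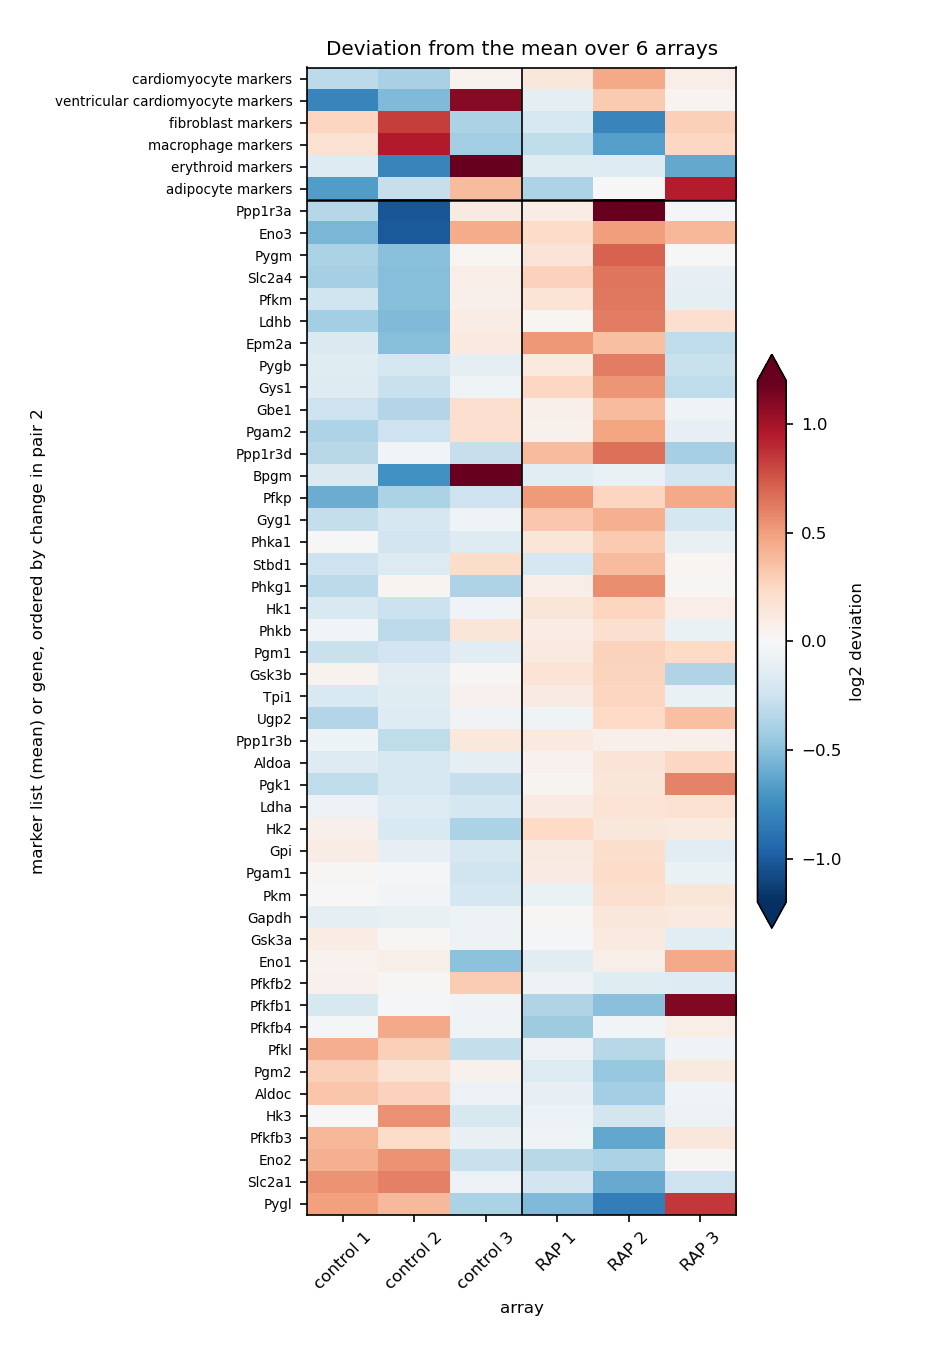
Log2 deviation from the 6-array mean on each array, for each measured glycolysis, glucose transport and glycogen gene and, as list means, for cell marker lists. Averaged over the 46 genes, the deviation was lowest on control array 2 (-0.14) and highest on RAP array 2 (0.17). RAP array 2 also had the highest cardiomyocyte and lowest fibroblast markers.

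Leaving out pair 3, which holds the control rat that stands apart, 24 of the 46 genes passed (16 higher and 8 lower, 52.2%), beside 21.8% of all genes. Without control rat 3 alone, and with no block, 12 were higher and 4 lower (34.8%, beside 15.5% of all genes), and Phkg1 was not among them. Without pair 1 only Pfkp passed (2.17%, beside 1.23% of all genes), and without pair 2 Pfkp and Pgk1 (4.35%, beside 3.56%). Pfkp passed in each of the 17 alternatives run, with changes of 0.67 to 1.05. Pgm1 was lost without pair 1 and without pair 2, and Slc2a1 was lost in the same fits and in the methods' paired test.

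Isozymes were set against each other by the difference of their changes within each pair. For the 12 differences the exact two-sided sign-flip permutation test gave p of 0.25 or above, the smallest that this test allows with 3 pairs (0.75 or above after Benjamini-Hochberg adjustment over the 12). In 3 of them the sign was the same in all pairs, namely Aldoc less Aldoa (mean -0.67), Hk3 less Hk2 (-0.57) and Pygb less Pygm (-0.27). The 3 largest means each had a pair of the other sign. Slc2a1 less Slc2a4 gave -1.44, -2.36 and 0.0027, Eno2 less Eno3 gave -1.52, -2.42 and 0.32, and Pygl less Pygm gave -1.55, -2.43 and 1.25. Hk1 less Hk2 averaged -0.01 ± 0.31 (SD, n = 3 pairs).

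**Figure D5:**
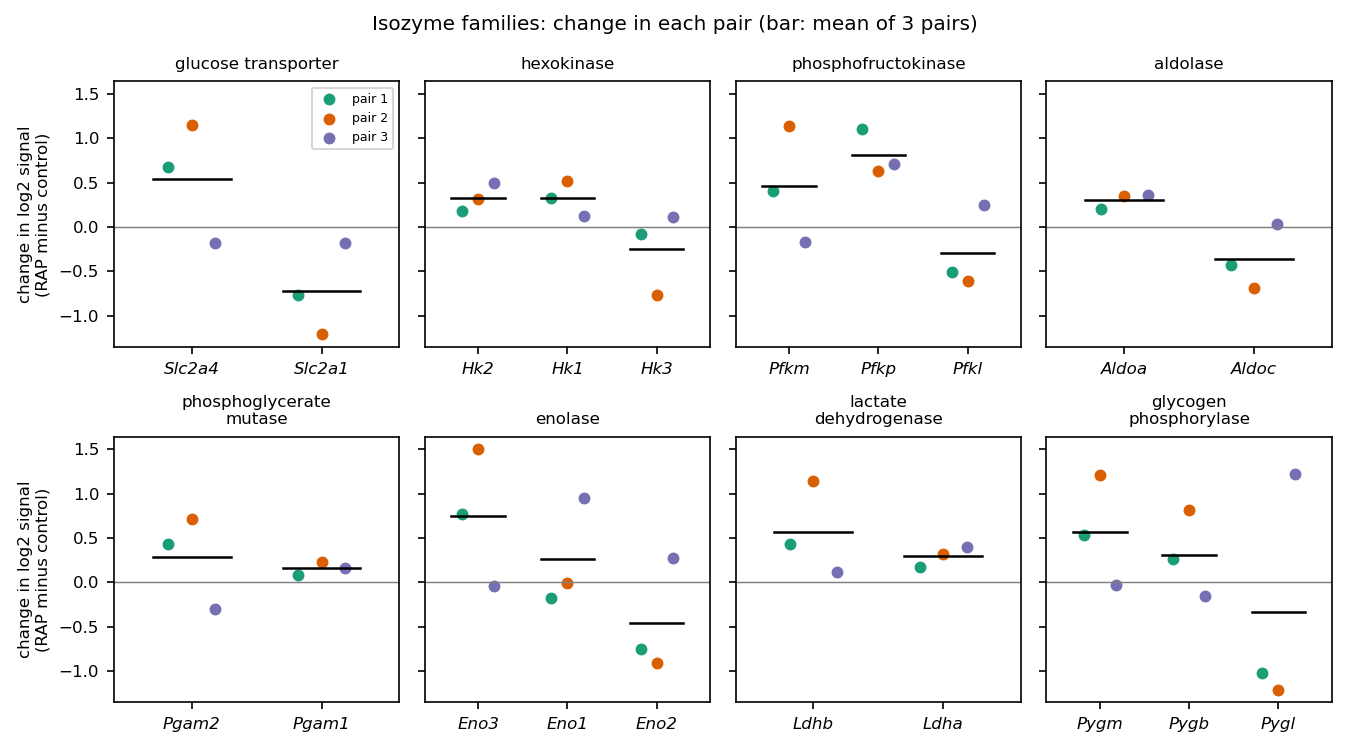
Log2 change (RAP minus control) of each isozyme in each of the 3 pairs of rats, grouped by enzyme or transporter family, with bars at the mean of the 3 pairs. Pairs 1 and 2 had the same sign for each gene shown. Pair 3 had the other sign for many of them, among them Slc2a4, Pfkm, Pfkl, Eno1, Eno2, Eno3, Pygm and Pygl.

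Related pathways were read from the same fit. A broader list held 24 measured genes of glucose production, lactate handling, other sugar transporters, glycerol phosphate shuttling and further glycolytic enzymes. Of these, 4 rose and 1 fell (20.8%, beside 6.15% of all genes). Eno4, counted among those that rose, stood at 4.47, 4.48 and 4.55 in control rats and 4.95, 5.0009 and 4.74 in RAP rats. It met the filter only through RAP rat 2, so its rise is no support for a direction. Pck1, the enzyme that commits carbon to glucose production and is abundant in fat, rose by 0.95 ± 0.28 (SE), with pair changes of 0.74, 0.41 and 1.69. Gpd1, glycerol 3-phosphate dehydrogenase, rose by 0.81 ± 0.25 with 0.53, 0.42 and 1.47. For both the largest change was in pair 3, whose RAP array had the highest adipocyte markers, and the part of fat tissue was not tested. Tigar, which lowers the activator of phosphofructokinase, stood at 6.80, 6.93 and 6.99 in control rats and 7.29, 7.37 and 7.38 in RAP rats, and rose by 0.44 ± 0.13. The transporter gene Slc2a10 fell by 0.66 on the log2 scale. Among 24 measured regulators of glucose metabolism 1 passed: Prkaa2, the catalytic subunit of the energy sensor AMPK found in muscle, rose by 0.72 ± 0.27, with 0.93, 1.22 and 0.00 in the pairs. None of 11 further glycogen genes and none of 17 genes of the side branches of glycolysis passed.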

How the data were processed

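RNA of 6 left atria was hybridised to whole-transcript rat arrays. The authors made the deposited log2 values in Partek (version not given in the sources used here) by robust multiarray averaging, which quantile-normalises the arrays and thereby removes a shift common to most genes. Array medians ran from 5.81 to 5.85. The number of arrays limits the precision.

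Of 29214 probe sets, 19907 had a log2 signal above 5 on at least 1 array. Of these, 11921 carried 1 gene symbol, and the probe set with the highest mean stood for each of 11237 genes. limma 3.58.1 (R 4.3.3) was fitted to all genes with the pair as a block (2 residual and 2.72 prior degrees of freedom). A gene passed at an unadjusted p under 0.05 and a fold above 1.3, the study's thresholds. The study's methods state that pairs were operated on and paced together. As a check, deviations of paired arrays from their group means correlated at 0.22, -0.24 and -0.32. The most correlated array was the pair partner for 0 of the 6 arrays. The paper reports clear likeness within its pairs by principal component analysis, without showing the plot. The checks here did not show arrays with the same replicate number to be alike. The block therefore rests on the described design and on taking equal replicate numbers as pairs, which was not stated. "Rose" and "fell" are used of genes past the thresholds only.

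Values are given for genes that passed, for isozymes set against each other and for the 3 largest changes in each direction that did not pass. Genes of related pathways are named only if they passed. Members and lists were chosen with earlier results of these data known. Alternatives covered the block, the test, array weights, filters, normalization, probe sets and left-out rats. Protein sequences were not analysed here. Figures were drawn with matplotlib 3.10.9.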

Additional observations from a re-analysis of the deposited data

How the results depend on the processing

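Among the 46 genes, the counts of 4 higher and 1 lower became 13 and 8 with array weights (45.7% of them, beside 24.9% of all genes), and 3 and 0 by the methods' t-test. The fit with no replicate block, which ignores the pairing, gave 5 and 1. Leaving out a pair gave 1 to 16 higher and 0 to 8 lower (2.17% to 52.2%, beside 1.23% to 21.8% of all genes). Leaving out a single rat, with no block, gave 12 and 4 without control rat 3 (15.5% of all genes), 4 and 1 without control rat 2 (4.64%), 3 and 1 without RAP rat 2 (4.62%), and 11 and 3 without RAP rat 3 (10.1%). Leaving out the RAP rats was chosen after seeing the data. The median change stayed between 0.11 and 0.30 with pairs or rats left out. The related pathways had 6 genes past the thresholds, Eno4 among them. The count was 25 with array weights, 1 by the methods' t-test and 0 to 21 without a pair. It was 16, 3, 1 and 9 without these 4 rats in the same order. The largest of these counts came from fits in which 24.9% and 21.8% of all genes passed, beside 6.15%. Pgk1 was lost in 5 alternatives, Phkg1 in 5, Slc2a1 in 3, Pgm1 in 2 and Pfkp in 0 of the 17. No gene that passed changed sign. Signs turned with array weights for Eno1 (-0.11), Pkm (-0.032), Pfkfb1 (-0.14) and Bpgm (0.024). Without a pair, values crossed 0 for Hk3 (-0.42 to 0.022), Eno1 (-0.090 to 0.47), Pfkfb1 (-0.33 to 0.49), Bpgm (-0.76 to 0.35), Pygl (-1.12 to 0.10), Phkb (-0.055 to 0.32), Gsk3a (-0.097 to 0.0088), Gsk3b (-0.13 to 0.26) and Stbd1 (-0.075 to 0.29). Bpgm was 0.31 without control rat 3, Gsk3b -0.0056 without control rat 2, Gsk3b -0.072 and Stbd1 -0.027 without RAP rat 2, and Pfkfb1 -0.35 and Gsk3a 0.030 without RAP rat 3. The causes were not tested. With 3 rats in a group the p-values rest largely on spread borrowed from other genes, and signals near the filter, as for Hk3, limit what a change can show.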
